A study of Ovis aries with 9 samples.

Results

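Small nuclear RNA fragments in ram sperm are the reads that the depositors' annotation assigned to small nuclear RNA. They were chosen by rule: every distinct read sequence whose annotation terms held snRNA, and held no microRNA, tRNA, rRNA, Y RNA or misc RNA term. The rule used the annotation only and no measured value. It took 8509 of the 3309646 distinct sequences in the series, of which 3984 occurred in the library labelled OVER, 4349 in RES and 3695 in CON, and 952 in all 3.

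Small RNA from the sperm of F1 rams was sequenced, and the study compared the sons of mothers fed in 3 ways. OVER stands for over feeding, RES for restricted feeding and CON for standard feeding. All groups are wild type, all come from semen, and somatic cells had been lysed with detergent in all of them. The labels list 3 samples in each group, but the 3 tables of a group held the same sequences and the same read counts without 1 difference, so each group was counted as 1 library. The files do not say whether that library is 1 ram or several, no age or breed is given in the labels, and the label sperm was not checked against markers here. The libraries held 8287937 reads in OVER, 13160116 in RES and 9983895 in CON. Values below are reads scaled to a library total of 1000000 (RPM), intervals are 95% intervals that cover counting error only, and no difference has a replicate check.

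Small nuclear RNAs are the RNA cores of the spliceosome, the machine that removes introns from messenger RNA in the nucleus. In the major spliceosome U1 RNA pairs with the 5′ splice site, U2 RNA with the branch point, and U4 RNA holds U6 RNA in check until the machine is activated; in the minor spliceosome U12 RNA takes the place of U2. All of these except U6 carry an Sm site, a short uridine-rich stretch around which 7 Sm proteins close as a ring. Mature sperm hardly transcribe, and their small RNA is made up largely of fragments of longer RNAs.

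The reads were joined by their overlaps into families, and 8 families each held at least 1% of the small nuclear reads of 1 library or more. The joined sequences below are shown because the later results refer to positions in them. They were built from the deposited reads, are written as DNA from 5′ to 3′ on the read strand, and have the Sm site in capitals. The word ATTTTTG marks it in U2, U12 and U4, and ATTTGTG in U1.
U2 joined sequence: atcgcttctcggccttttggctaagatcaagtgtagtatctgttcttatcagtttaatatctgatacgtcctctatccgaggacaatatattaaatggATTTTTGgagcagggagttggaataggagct
U12 joined sequence: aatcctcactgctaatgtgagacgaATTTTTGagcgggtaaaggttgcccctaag
U4 joined sequence: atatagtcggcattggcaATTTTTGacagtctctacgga
U1 joined sequence: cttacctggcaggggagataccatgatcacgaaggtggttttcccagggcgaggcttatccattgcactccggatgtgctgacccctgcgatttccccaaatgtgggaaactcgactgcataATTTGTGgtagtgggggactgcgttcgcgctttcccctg
They are 129, 55, 39 and 161 nt long, and the Sm word begins at base 99 of U2, 26 of U12, 19 of U4 and 123 of U1. Names came from words known to lie in each RNA, such as TGTAGTATC in U2, TTGAGCGGG in U12, TTGACAGTC and CGCCGTGAC in U4 and TTACCTGGC in U1. A second U2 family and a second U4 family were named in the same way and are summed with the first. The RefSeq table of the sheep assembly ARS-UI_Ramb_v3.0 lists 1026 snRNA genes under locus names, and none of them has a symbol that names its U RNA. The build of the depositors' files is not given in the sources used here, so no genome position is stated.

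The whole class was highest in OVER. It made up 4.20% of all reads in OVER (4.18 to 4.21%), 0.883% in RES (0.878 to 0.888%) and 0.837% in CON (0.832 to 0.843%), from 347839, 116175 and 83602 reads. In RPM these were 41969 in OVER, 8828 in RES and 8374 in CON. OVER was thus 5.01-fold above CON (log2 2.33, 2.31 to 2.34) and 4.75-fold above RES. RES was 1.05-fold above CON (log2 0.08, 0.06 to 0.09), a difference that turned to a log2 of -0.15 with TMM factors and -0.17 with DESeq2 size factors, so no direction is drawn for RES against CON over the class. Of a pair of other annotated classes, misc RNA fragments had the same order of libraries at a smaller fold of OVER over CON (3.21), with 139389 RPM in OVER, 81845 in RES and 43438 in CON. Small nucleolar RNA fragments had another order, with 1371 RPM in OVER, 471 in RES and 1457 in CON. TMM factors and DESeq2 size factors shift every ratio of OVER over CON by 0.19 and 0.28 on the log2 scale, every ratio of RES over CON by -0.23 and -0.24, and every ratio of OVER over RES by 0.42 and 0.52.

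The fragments were short. Their mean length was 18.4 nt in OVER, 20.1 nt in RES and 21.2 nt in CON, and the commonest length was 17, 18 and 19 nt in that order of libraries. Reads of 17 to 20 nt were 85.1% of the class in OVER, 65.6% in RES and 55.5% in CON. Among all other reads the share of those lengths was 18.7% in OVER, 7.85% in RES and 4.64% in CON, and their mean length was 23.5, 27.2 and 28.6 nt. The OVER library was therefore shorter throughout, and the small nuclear fragments were shorter than the rest in every library. Counted the other way, small nuclear fragments were 16.6% of all 17 to 20 nt reads in OVER, 6.93% in RES and 9.18% in CON.

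**Figure D1:**
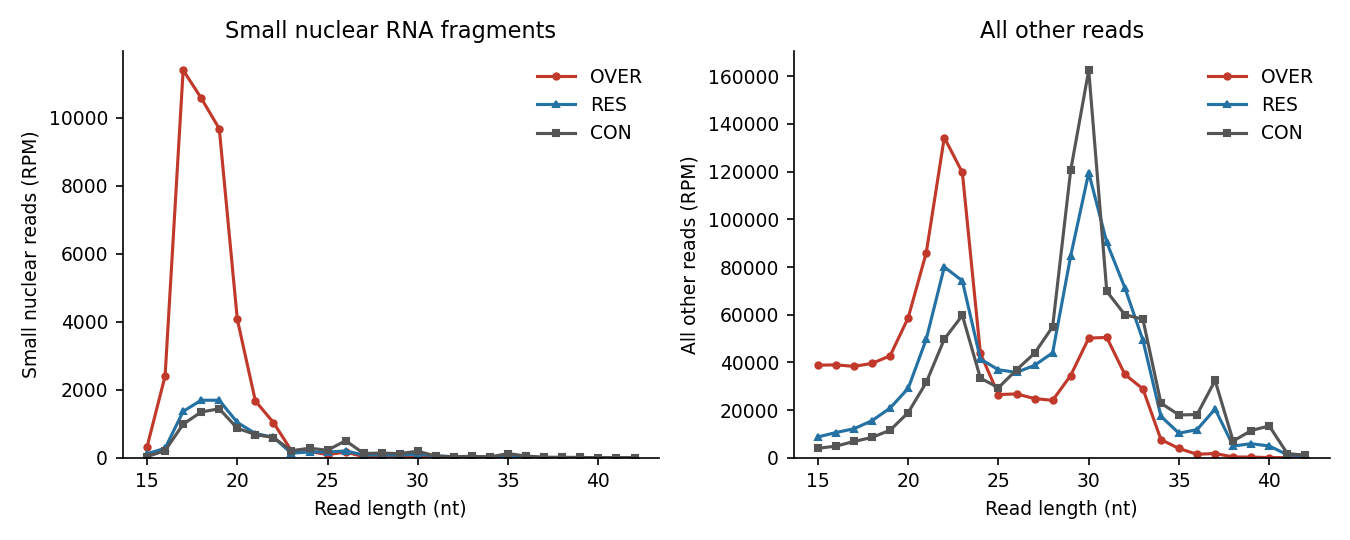
Length of small nuclear RNA fragments (left, RPM at each read length in nt) and of all other reads (right, RPM) in OVER, RES and CON, 1 library each. The small nuclear fragments peaked at 17 nt in OVER, 18 nt in RES and 19 nt in CON, while the other reads had a peak at 22 or 23 nt and another at 30 or 31 nt whose balance differed between the libraries.

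Because length differed between the libraries, the class was also set against what each library would hold at the other's lengths. The 4.20% observed in OVER stood against 2.89% when the small nuclear share of each read length was taken from CON and the read lengths from OVER, a 1.45-fold difference. It stood against 2.08% when the shares were taken from RES, a 2.01-fold difference. The 0.883% observed in RES stood against 1.26% when the shares were taken from CON. Per read of 21 nt or longer, OVER over CON was 0.43 on the log2 scale, OVER over RES 0.77 and RES over CON -0.33. The excess in OVER was thus much smaller at like length; whether the length make-up and the small nuclear level have a common source was not tested.

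U2 fragments made up most of the class. They held 33899 RPM in OVER, 5917 in RES and 5258 in CON, which was 80.8% of small nuclear reads in OVER, 67.0% in RES and 62.8% in CON. OVER was 6.45-fold above CON (log2 2.69, 2.68 to 2.70) and 5.73-fold above RES. RES was 1.13-fold above CON (log2 0.17, 0.15 to 0.19), which became 0.959-fold with TMM factors. Nearly every U2 read crossed the Sm site: the word was present in 99.8% of them in OVER and in 98.6% in both RES and CON. The same word occurred in 0.246% of all reads outside the class in OVER, 0.0735% in RES and 0.290% in CON. The few U2 reads without the word, which start mostly in the first 40 bases of the molecule, were level across the libraries at 78.7 RPM in OVER, 80.2 in RES and 72.3 in CON, with an interval of -0.03 to 0.28 for the log2 ratio of OVER over CON. Summed over all lengths, the difference between OVER and CON in U2 thus lay in the Sm site reads, at 33821 RPM in OVER and 5186 in CON. The sum of the reads without the word showed no such difference, but its lengths differed. Reads of 15 to 20 nt were 40.3% of it in OVER and 9.28% in CON, so short U2 reads without the word were higher in OVER too. Reads with the word were also shorter, with a mean in CON of 19.1 nt against 27.7 nt without it. Taken at the read lengths of OVER, the fold of OVER over CON was 1.497 with the word and 0.821 without it. Whether length accounts for the contrast was not tested.

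The U2 Sm site fragments formed a ladder, with 1 or 2 fixed 3′ ends and stepwise 5′ ends. Ends were counted only in Sm site reads that match the U2 joined sequence above without a mismatch, which leaves out the second form described below. Exact matches to that sequence were 92.6% of all U2 reads in OVER, 93.5% in RES and 91.8% in CON. Reads that end GCAGG, with 7 bases after the word, were 78.6% of these Sm site reads in OVER, 83.5% in RES and 77.9% in CON. Reads that end 1 base earlier, in AGCAG, were 19.7%, 15.2% and 20.8% of them in the same libraries. Rungs of the first ladder are shown, which differ only in their 5′ end. Those of 17 to 22 nt are among the 12 most abundant sequences of the class. The 27 nt rung is shown because it was among the 3 lowest ratios of OVER over RES.
U2 17 nt: tggATTTTTGgagcagg
U2 18 nt: atggATTTTTGgagcagg
U2 19 nt: aatggATTTTTGgagcagg
U2 20 nt: aaatggATTTTTGgagcagg
U2 21 nt: taaatggATTTTTGgagcagg
U2 22 nt: ttaaatggATTTTTGgagcagg
U2 27 nt: atatattaaatggATTTTTGgagcagg
The 19 nt rung was the leading sequence of the class, at 7431 RPM in OVER, 1303 in RES and 1071 in CON, and alone held 17.7% of small nuclear reads in OVER, 14.8% in RES and 12.8% in CON. The 12 leading sequences of the class, 10 from U2 and 2 from U12, held 77.5% of its reads in OVER, 62.0% in RES and 54.5% in CON. The first 50% of the class was covered by 3 sequences in OVER, 6 in RES and 8 in CON, so the class was least diverse where it was highest.

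Along the ladder, the excess in OVER depended on length. The 17 nt rung stood at 7237 RPM in OVER, 854 in RES and 547 in CON, which was 13.2-fold in OVER over CON. The 18 nt rung stood at 6983 RPM in OVER, 1056 in RES and 804 in CON, 8.68-fold. On the log2 scale their intervals were 3.68 to 3.77 and 3.08 to 3.15. At 19 nt the fold was 6.94 and at 20 nt it was 3.98. From 21 nt on the fold was small: 598 RPM in OVER, 362 in RES and 328 in CON at 21 nt, which was 1.82-fold. The 22 nt rung was nearly level, at 421 RPM in OVER, 289 in RES and 334 in CON, and the 24 nt rung was lower in OVER, at 27.3 RPM, against 37.2 in RES and 50.9 in CON. The 27 nt rung, which was named for its low ratio of OVER over RES, was nearly missing from OVER, at 1.33 RPM, against 31.7 in RES and 17.4 in CON. A fragment and its neighbour, 1 base apart at the 5′ end, therefore differed in their ratio. Their shared 3′ end follows from how the rungs were chosen. Reads outside the class showed the same order at a gentler slope, with an OVER over CON fold of 5.58 at 17 nt, 3.10 at 20 nt, 2.70 at 22 nt and 0.567 at 27 nt. For RES over CON the fold was 1.56 at 17 nt, 1.22 at 19 nt and 0.865 at 22 nt, against 1.77, 1.80 and 1.61 for other reads of those lengths. It was 0.541 at 23 nt (log2 -0.88, -1.08 to -0.69) and 1.82 at 27 nt (log2 0.86, 0.60 to 1.13), so the longer rungs lay on both sides of CON.

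**Figure D2:**
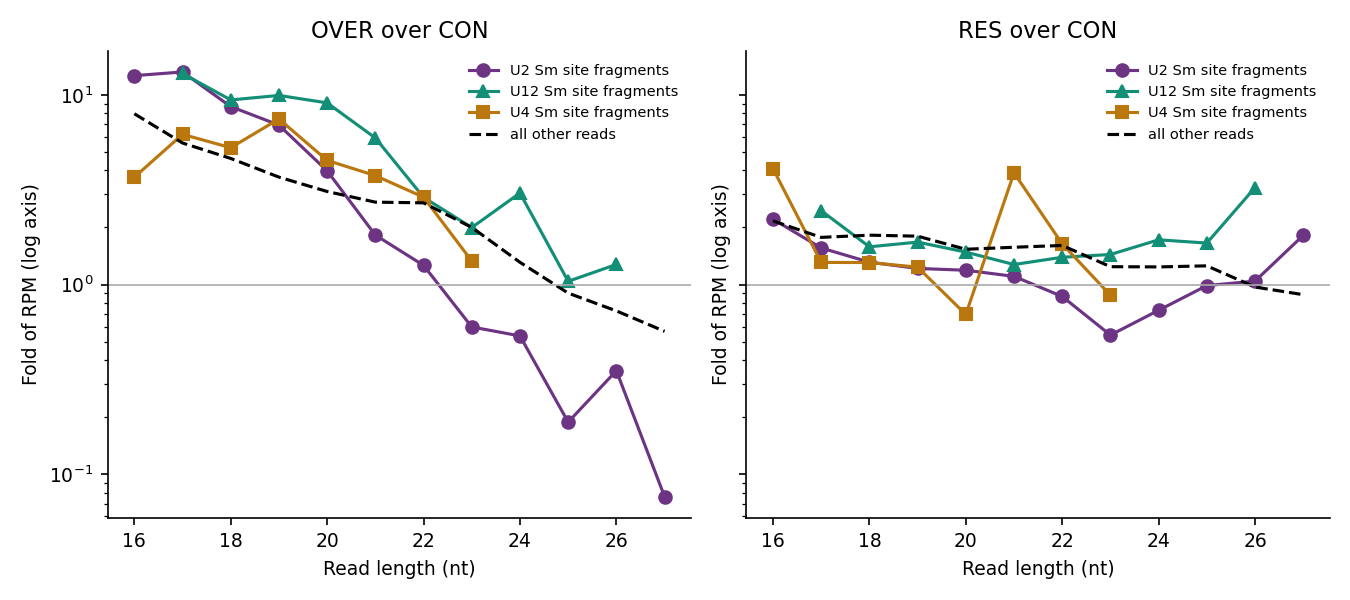
Fold of RPM at each read length (nt, log axis) for OVER over CON (left) and RES over CON (right), for the nested Sm site fragments of U2, U12 and U4 that share the commonest 3′ end and for all reads outside the class (dashed). In OVER over CON the U2 points lie above the dashed line up to 20 nt and below it from 21 nt. The U12 points lie above it from 17 to 22 nt, level with it at 23 nt and above it again from 24 to 26 nt.

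A second form of the U2 Sm region was present. From the last base of the Sm word on it carries GGGATTA, and the main form carries GGAGCAG. Its leading sequence is shown for comparison with the 18 nt rung above.
U2 second form, 18 nt: atggATTTTTGggattag
The second form held 2136 RPM in OVER, 295 in RES and 349 in CON, against 31428, 5506 and 4805 RPM for the main form in those libraries. It was 6.36% of the 2 forms in OVER, 5.09% in RES and 6.78% in CON. Both forms were higher in OVER by a like factor, 6.12-fold over CON for the second form and 6.54-fold for the main form. Whether the second form comes from other U2 gene copies was not tested.

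U12, the branch point RNA of the minor spliceosome, was the second RNA of the class. Its fragments stood at 5781 RPM in OVER, 1149 in RES and 751 in CON, which was 13.8% of small nuclear reads in OVER, 13.01% in RES and 8.97% in CON. OVER was 7.69-fold above CON (log2 2.94, 2.91 to 2.98) and 5.03-fold above RES. RES was 1.53-fold above CON (log2 0.61, 0.57 to 0.65), or 1.30-fold with TMM factors. All but 1 to 3 U12 reads in each library held the Sm word, among 47912 U12 reads in OVER, 15117 in RES and 7501 in CON. This follows largely from how U12 reads were gathered. The joined sequence spans only 55 nt around the site, and its naming word overlaps the Sm word. Reads from the rest of U12 would not be counted as U12 here, so the share does not describe the whole RNA. As in U2, the 3′ end was nearly fixed among Sm site reads that match the joined sequence exactly. Of these, reads ending CGGGT were 66.1% in OVER, 72.3% in RES and 71.2% in CON, and reads ending 1 base earlier were 31.8%, 24.6% and 25.2%. The leading U12 fragments were of 20 and 18 nt.
U12 20 nt: agacgaATTTTTGagcgggt
U12 18 nt: acgaATTTTTGagcgggt
The 20 nt fragment stood at 1279 RPM in OVER, 209 in RES and 141 in CON, and the 18 nt fragment at 876 RPM in OVER, 147 in RES and 93.05 in CON. The OVER over CON fold was 12.98 for the 17 nt rung and stayed at 9.08 to 9.94 from 18 to 20 nt, then was 5.93 at 21 nt, 2.89 at 22 nt and 1.04 at 25 nt. The 5781 RPM of U12 in OVER stood against 2615 RPM in CON taken at the read lengths of OVER, a 2.21-fold difference. The same ratio was 1.49-fold for U2.

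U4, the RNA that keeps U6 inactive before splicing starts, gave fragments of a pair of regions whose levels, summed over all lengths, differed in opposite directions. Its Sm site reads stood at 683 RPM in OVER, 192 in RES and 134 in CON, 5.10-fold in OVER over CON (log2 2.35, 2.26 to 2.44) and 1.43-fold in RES over CON. Those that match the joined sequence exactly ended in TCTCT, 9 bases after the word, in 98.2% of cases in OVER, 94.1% in RES and 95.8% in CON. The leading fragment, of 18 nt, stood at 433 RPM in OVER, 107 in RES and 82.2 in CON. U4 reads without the word came mostly from a stretch around CGCCGTGAC and stood at 40.8 RPM in OVER, 80.0 in RES and 142 in CON, so that OVER held 0.288 of the CON level (log2 -1.80, -1.97 to -1.62). Among the U4 reads gathered from these regions, the Sm word was thus in 94.4% in OVER, 70.6% in RES and 48.6% in CON. The regions also differed in length, with a mean in CON of 18.8 nt with the word and 23.3 nt without it. Reads of 15 to 20 nt were 36.1% of those without the word in OVER and 5.59% in CON. Taken at the read lengths of OVER, the fold of OVER over CON was 1.10 with the word and 0.157 without it. Whether length accounts for the contrast in U4 was not tested. One leading fragment of each region is shown.
U4 Sm site, 18 nt: caATTTTTGacagtctct
U4 other stretch, 24 nt: taccccgccgtgacgacttgaaat
The 24 nt fragment stood at 15.1 RPM in OVER, 30.7 in RES and 79.6 in CON, which places OVER and RES below CON here, while both were above CON at the Sm site.

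U1, the RNA that recognises the 5′ splice site, was lower in OVER when summed over all lengths. It stood at 154 RPM in OVER, 335 in RES and 486 in CON, which was 0.367% of the class in OVER, 3.80% in RES and 5.81% in CON. OVER held 0.317 of the CON level (log2 -1.66, -1.75 to -1.57) and 0.460 of the RES level, and RES held 0.689 of the CON level. The mean length of U1 reads was 22.0 nt in OVER, 27.1 nt in RES and 29.1 nt in CON. Reads of 15 to 20 nt were 52.0% of U1 in OVER, 15.1% in RES and 4.49% in CON. Short U1 reads were thus higher in OVER than in CON, and the lower sum lay in the longer reads. U1 reads with the Sm word stood at 44.9 RPM in OVER, 71.4 in RES and 89.9 in CON, so in U1 the Sm site reads had the same order of libraries as the rest. Reads starting within bases 61 to 80, upstream of the word, stood at 48.6 RPM in OVER, 186 in RES and 311 in CON, and were the larger part of U1 in RES and CON. Reads starting within bases 101 to 120 lay closer together, at 67.4 RPM in OVER, 68.1 in RES and 84.4 in CON. Those starting within bases 121 to 140 were highest in OVER, at 11.7 RPM, against 4.33 in RES and 2.80 in CON. The U1 fragments that differed most are long.
U1 30 nt: tccggatgtgctgacccctgcgatttcccc
U1 Sm site, 36 nt: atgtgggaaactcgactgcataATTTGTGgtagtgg
The 30 nt fragment, the leading U1 sequence, stood at 6.27 RPM in OVER, 48.5 in RES and 118 in CON. The 36 nt fragment stood at 1.21 RPM in OVER, 11.8 in RES and 25.8 in CON, and its log2 ratio of OVER over CON, -4.42, was the lowest of 82 sequences. U1 was lower at like length as well, at 154 RPM observed in OVER against 317 RPM in CON taken at the read lengths of OVER.

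**Figure D3:**
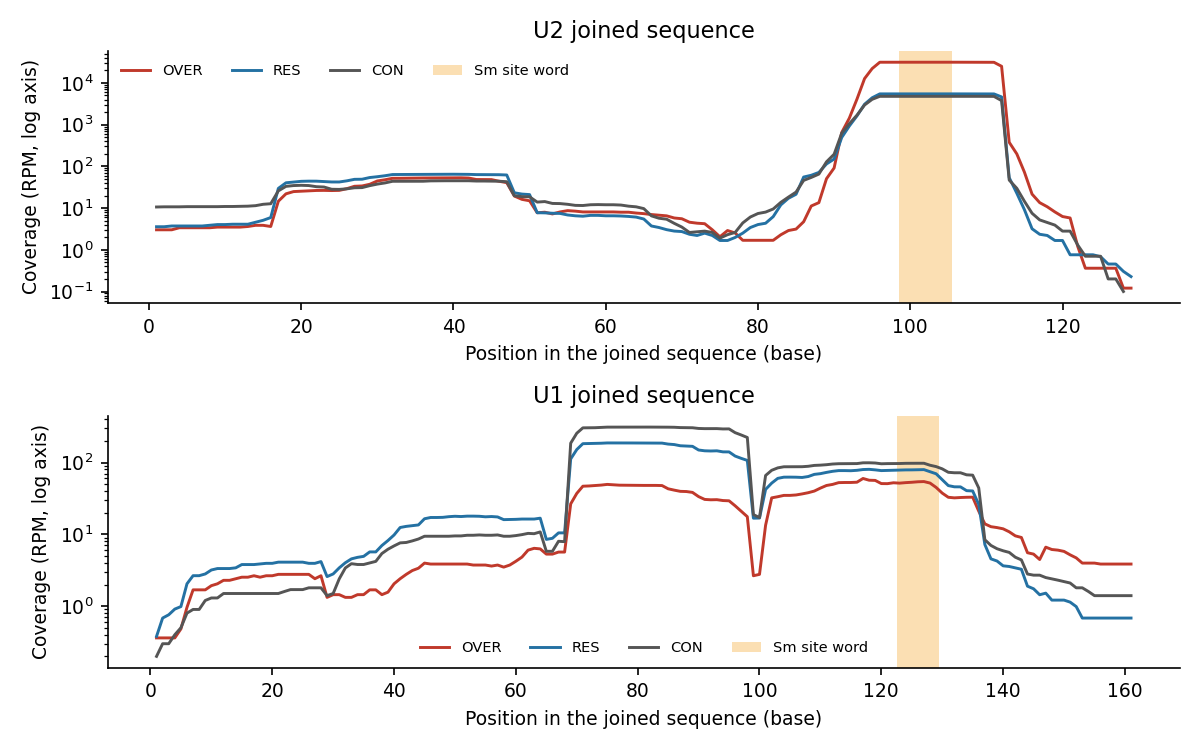
Reads covering each base (RPM, log axis) of the joined U2 and U1 sequences in OVER, RES and CON, 1 library each, with the Sm site word shaded. In U2 coverage of the first 70 bases reached at most 53.2 RPM in OVER, 64.7 in RES and 45.2 in CON, and OVER stood far above RES and CON over the Sm word. In U1 OVER was the lowest from base 29 to base 136.

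U6, the spliceosomal RNA without an Sm site, was scarce in these libraries. Families with its word ATACAGAGA held 16.5 RPM in OVER, 24.9 in RES and 24.7 in CON, from 137, 328 and 247 reads. The words of U7, U11, U4atac and U6atac named none of the 8 leading families. Together the 8 families held 98.7% of small nuclear reads in OVER, 97.1% in RES and 97.2% in CON, and the rest fell into 849 small families.

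One leading family held none of the words. Its sequences were annotated as snRNA and, in 99.8 to 99.9% of its reads, also as lncRNA, so its place in the class rests on the annotation alone. It stood at 441 RPM in OVER, 312 in RES and 942 in CON, which was 1.05% of the class in OVER, 3.54% in RES and 11.2% in CON. OVER held 0.469 of the CON level (log2 -1.09, -1.15 to -1.04) and RES 0.332 of it. Its leading sequence is shown so that it can be identified.
Family with no word, 26 nt: caataaactgtggaaaattctgaaag
This fragment stood at 132 RPM in OVER, 123 in RES and 407 in CON. The 3 sequences with the lowest log2 ratios of RES over CON, -2.19, -1.99 and -1.93, all belonged to this family. Without it the class was 2.48 higher on the log2 scale in OVER over CON and 0.20 in RES over CON.

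**Figure D4:**
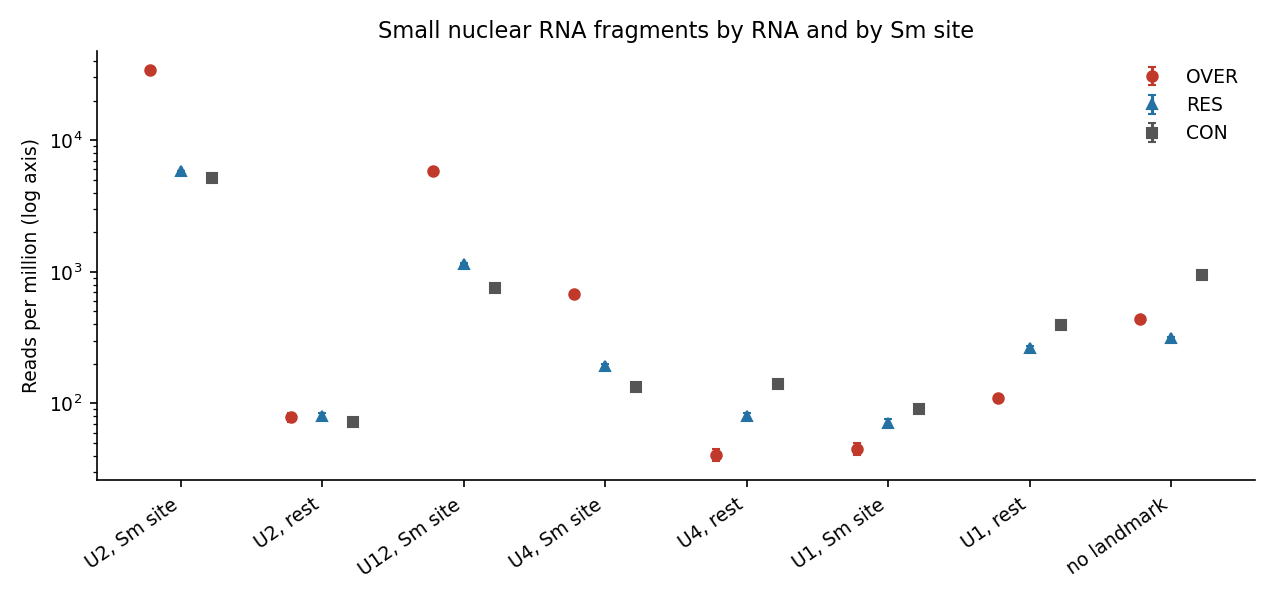
Level (RPM, log axis) of the fragments of each RNA, split into reads with the Sm site word and the rest, in OVER, RES and CON, 1 library each; bars are 95% exact Poisson intervals and mostly lie within the symbols. The Sm site reads of U2, U12 and U4 were highest in OVER, while the rest of U4 and U1, the Sm site reads of U1 and the family with no landmark word were not.

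Summed over the class and over all lengths, the excess in OVER lay in the Sm site reads. Sm site reads of all leading families that have one together stood at 40467 RPM in OVER, 7336 in RES and 6236 in CON, 6.49-fold in OVER over CON. All small nuclear reads without an Sm word of their RNA stood at 1502 RPM in OVER, 1492 in RES and 2138 in CON, and so were lower in OVER, at 0.703 of CON (log2 -0.51, -0.54 to -0.48). This pool is mixed: the family with no word gave 441 RPM of it in OVER and 942 in CON, and the small families gave 553 and 237. Its reads were also longer, with a mean in CON of 26.0 nt against 19.6 nt for the Sm site reads, and no fold at like length was taken for it. Reads of 15 to 20 nt were 51.6% of the pool in OVER and 10.2% in CON. At 17 nt the pool was higher in OVER, at 110 RPM against 18.5 in CON. At 26 nt it was lower in OVER, at 154 RPM against 482. Its lower sum in OVER thus does not hold for its short reads. The Sm site excess differed between the RNAs: OVER over CON was 7.70-fold for U12, 6.52-fold for U2, 5.10-fold for U4 and 0.499-fold for U1. Taken at the read lengths of OVER, those folds were 2.21 for U12, 1.497 for U2, 1.10 for U4 and 0.867 for U1. The RNAs thus lay closer together at like length. Their Sm site reads differed in length, with a mean in CON of 18.8 nt for U4, 19.1 nt for U2, 20.4 nt for U12 and 32.9 nt for U1.

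Single sequences were counted where a pair of libraries held at least 100 reads of them together, 2-fold being the limit. In OVER against CON, 122 of the 8509 small nuclear sequences had that many reads; 76 were at least 2-fold higher in OVER, 25 at least 2-fold lower and 21 lay between. Over all 9319 sequences of the series with as many reads, 34.5% were higher and 34.7% lower, and the median log2 ratio was -0.08, against 2.04 for the small nuclear sequences. Among 17 to 20 nt sequences, 46 of 49 small nuclear ones were higher and 0 lower, where 74.7% of all 1572 sequences of that length were higher and 2.16% lower. The median log2 ratio was 3.12 for the small nuclear sequences of that length and 2.20 for all sequences of that length. Over 20 nt the count turned: 18 of 61 small nuclear sequences were higher and 25 lower, with a median log2 ratio of -0.29, where 20.3% of all 7129 sequences over 20 nt were higher and 44.9% lower, with a median of -0.76. By RNA, the counts higher and lower in OVER were 37 and 2 of 51 for U2, 25 and 0 of 27 for U12, 5 and 4 of 9 for U4, and 0 and 9 of 9 for U1. The highest log2 ratio, 4.72, belonged to a 15 nt U2 fragment, and the next to a U12 fragment that differs from the leading 20 nt fragment in its last base.
U2 15 nt: tggATTTTTGgagca
U12 20 nt, other 3′ base: agacgaATTTTTGagcgggc
The first stood at 29.0 RPM in OVER, 1.60 in RES and 1.10 in CON. The other stood at 102 RPM in OVER, 7.98 in RES and 4.31 in CON, a log2 ratio of OVER over CON of 4.57 against 3.18 for the leading fragment. Both were named for their high ratio, so a ratio above that of the leading fragment follows from the choice. They had 240 reads in OVER against 11 in CON, and 848 against 43. Their log2 intervals were 3.85 to 5.74 and 4.13 to 5.05.

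In RES against CON, 113 small nuclear sequences had enough reads; 16 were at least 2-fold higher in RES, 22 at least 2-fold lower and 75 lay between. Over all 11737 sequences, 26.8% were higher and 13.9% lower. The median log2 ratio was 0.17 for the small nuclear sequences and 0.20 for all sequences. Split by length, the small nuclear median was the lower one on both sides. At 17 to 20 nt it was 0.39 against 1.08 for all sequences, and 7 of 37 were higher and 0 lower, where 53.1% of all sequences of that length were higher and 2.92% lower. Over 20 nt it was -0.48 against 0.08 for all sequences, and 5 of 70 were higher and 22 lower, where 21.8% of all were higher and 15.9% lower. Of the 16 higher, 4 were from U12 and 2 each from U1, U2 and U4. Of the 22 lower, 9 were from the family with no word and 7 from U1. A 26 nt U12 fragment was among the 3 highest, at 8.57 RPM in OVER, 21.8 in RES and 6.71 in CON.

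In OVER against RES, 128 small nuclear sequences had enough reads; 79 were at least 2-fold higher in OVER, 20 at least 2-fold lower and 29 lay between. Over all 11256 sequences, 25.4% were higher and 37.8% lower, and the median log2 ratio was -0.39, against 1.76 for the small nuclear sequences. Among those of 17 to 20 nt, 49 of 54 were higher and 1 lower, where 48.1% of all 2090 sequences of that length were higher and 11.1% lower. Over 20 nt, 18 of 59 were higher and 19 lower, with a median log2 ratio of 0.22, where 15.4% of all 8369 were higher and 47.8% lower, with a median of -0.90. The comparisons of OVER with RES and with CON share the OVER library, so they are not separate evidence. U2 had 44 of 54 sequences higher in OVER than in RES, U12 had 21 of 28, and all 8 of U1 were lower. The 3 highest were U2 fragments, among them a pair that run 1 and 2 bases past the usual 3′ end.
U2 21 nt, past the usual end: aaatggATTTTTGgagcaggg
U2 22 nt, past the usual end: aaatggATTTTTGgagcaggga
These stood at 46.0 and 32.1 RPM in OVER, 2.89 and 1.44 in RES, and 2.10 and 1.90 in CON. They were 21.9-fold and 16.9-fold higher in OVER than in CON, against 1.82-fold and 1.26-fold for the rungs of the same lengths with the usual 3′ end; this pair was named for its high ratio.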

How the data were processed

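The deposited tables list distinct small RNA sequences with whole-number read counts per sequence, not normalized, together with length, a genome match flag and annotation terms, per the file headers. Per the labels' protocols, libraries were prepared from size-selected RNA by a NEBNext kit for small RNA. Of tools, edgeR alone is named in the submitters' processing notes. The 3 tables of each group were identical, so each group is 1 library, and no test between groups was run. An exact permutation test over the 3 samples of a group had been set down only for the case that the tables differed. The members and lists were chosen with earlier results of these data known, and the Sm words and some naming words were chosen after the reads were seen.

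Counts were divided by all reads of the library. Intervals for RPM are exact Poisson, for shares exact Clopper-Pearson, and for ratios exact binomial, at 95%. Families were built from the most abundant read outward, and the joined sequence was extended base by base from reads overlapping it by 20, 17 or 14 nt. A base was added where the reads that carry it had at least 10 counts in sum. A read joined the first family with which it shared 14 nt. A family was named by a word of 9 nt from a known small nuclear RNA; the words were searched on the read strand only. Each naming word lay in at most 0.00409% of the reads outside the class in any library. ATTTGTG lay in 0.157 to 0.272% of them; the words TTGAGCGGG and TTGACAGTC overlap the last bases of the Sm word. Sequences were named by rule: the 12 with the highest mean RPM, the leading sequence of each family, and the 3 highest and 3 lowest ratios per comparison among genome-matching sequences with at least 100 reads in the libraries compared and a mean of at least 10 RPM. A ratio at equal length applies the small nuclear share of each read length in one library to the read lengths of the other. Join and count steps were tested on simulated data. Alternatives were other denominators, TMM factors of edgeR 4.0.16 and size factors of DESeq2 1.42.0, left-out families and lengths, and other filters. Python 3.11.15, pandas 2.3.3, scipy 1.17.1 and R 4.3.3 were used. Multi-copy small nuclear genes share sequence, so reads cannot be assigned to single gene copies. The alignment and annotation software, like the genome build, is not given in the sources used here. Of the 8 leading families, 1 is not reported here on its own, and its reads stay in the totals of the class.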

Additional observations from a re-analysis of the deposited data

How the results depend on the processing

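No paired analysis was possible because the 3 tables of each group are identical; for the same reason no replicate could be left out. Log2 ratios of the class follow in the order OVER over CON (2.33 as reported), RES over CON (0.08) and OVER over RES (2.25). They were 2.20, -0.15 and 2.35 per annotated read; 2.25, -0.07 and 2.32 among genome-matching reads; 0.43, -0.33 and 0.77 per read of 21 nt or longer; 2.43, 0.23 and 2.20 with snRNA as the sole term; 2.24, 0.04 and 2.20 without the leading sequence; 2.52, -0.15 and 2.67 with TMM; 2.61, -0.17 and 2.77 with DESeq2 size factors; and 0.54, -0.51 and 1.01 at equal length make-up. Without sequences seen once OVER over CON was 2.35 and OVER over RES 2.27. Alternatives chosen after seeing the data gave 1.37, -0.10 and 1.47 without U2, 2.48, 0.20 and 2.29 without the family with no word, and -0.51, -0.52 and 0.01 without Sm word reads. RES over CON changed sign under 8 of these settings; OVER over CON did so only without Sm word reads. With a minimum of 10 reads, 349 sequences were higher and 142 lower in OVER against CON, 159 and 121 in RES against CON, and 350 and 205 in OVER against RES; per read of 21 nt or longer the counts were 21 higher and 23 lower, 5 and 21, and 26 and 16, so that OVER against CON had more sequences lower than higher. When a read had to share 18 nt with a joined sequence, or its whole length where shorter, the shares of the class in OVER, RES and CON were 80.3, 66.6 and 62.4% for U2, 13.4, 12.8 and 8.86% for U12, 1.63, 2.89 and 3.15% for U4, and 0.352, 3.68 and 5.74% for U1. With 1 library a group, depth sets counting error only; 3 reads, the limit that a count of 0 allows, are 0.362 RPM in OVER, 0.228 in RES and 0.300 in CON.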

Other observations

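Reads annotated as antisense to small nuclear RNA lay outside the class and had another length and another order of libraries. They numbered 866 in OVER, 1049 in RES and 2438 in CON, which was 104 RPM in OVER, 79.7 in RES and 244 in CON. Their mean length was 21.9 nt in OVER, 27.3 nt in RES and 30.1 nt in CON.

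A small number of reads outside the class held the U2 Sm site word with the bases that follow it, at 32.9 RPM in OVER, 28.0 in RES and 15.5 in CON. Of these, 64.8% in OVER, 91.1% in RES and 94.8% in CON did not match the genome by the depositors' flag.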
